A study of Mus musculus with 6 samples.

Results

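Of 10 genes chosen by name for the MiT/TFE transcription factors, the Rag-folliculin module that controls them and their target gene Gpnmb, 8 were measured on the array, by 11 of its 22690 probe sets. A probe set counted as a member only where the platform annotation tied it to exactly 1 of these genes. Tfeb, Tfec, Gpnmb, Rraga, Rragc and Rragd each had 1 probe set, Mitf had 2 and Flcn had 3, whereas Tfe3 and Fnip1 had none and are not analysed here. The study measured total liver RNA at postnatal day 9 on Affymetrix arrays, 3 labelled wild type (CTL) and 3 transgenic, the latter from 3 mice. In the transgenic mice a conditional Tcfeb (Tfeb) overexpression allele was combined with Alb-Cre, a Cre recombinase driven by the albumin promoter, which is active in hepatocytes. The labels give neither the construct nor the alleles that the wild-type mice carry. They call the arrays biological replicates without saying whether the animals were littermates or pooled.

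TFEB, TFE3, MITF and TFEC are basic helix-loop-helix leucine zipper proteins that bind E-box motifs and switch on lysosomal and autophagy genes. When nutrients are ample, Rag GTPase dimers on the lysosome, made of RagA or RagB with RagC or RagD, bring these factors to the kinase mTORC1, which phosphorylates them so that 14-3-3 proteins hold them in the cytosol. Folliculin (Flcn), with its partner Fnip1, switches RagC and RagD into the form that presents the factors to the kinase. Rragc, Rragd, Flcn and Fnip1 are themselves described as targets of the factors, which closes a feedback loop. GPNMB is a membrane glycoprotein of lysosomes and melanosomes, is a known MITF and TFE3 target and is abundant in macrophages under lysosomal stress.

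All values below are log2 expression per probe set as deposited, and group values are mean ± SD with n = 3. A difference is the transgenic mean less the wild-type mean, and its standard error (SE) comes from a limma fit to the 22626 probe sets that are not array controls. A probe set was called at a Benjamini-Hochberg adjusted p under 0.05. The array medians were 6.74 to 6.76 in wild type and 6.78 to 6.79 with the transgene, and the number of arrays limits the precision. Bacterial hybridisation controls added to every sample read lower in all 3 transgenic arrays than in any wild-type array for 14 of 14 probe sets (median difference -0.37), so that scaling the arrays to them moved the median of all probe sets from -0.04 to 0.33, with 57.3% called higher and 4.18% lower. Directions are those of the deposited scale, and the scaled value is given where it changes that of a member or a named gene. The array labelled transgenic replicate 1 read 5.58 for Xist and 9.32 for the Y-linked gene Eif2s3y, against 13.03 to 13.19 and 3.06 to 3.43 on the other 5 arrays. By these genes that array reads as male and the other 5 as female, so sex was not balanced between the groups. Without that array no member changed direction or gained a call, and of the 3 called probe sets only Flcn 1456744_x_at lost its call. Markers of hepatocytes, the cells the albumin promoter marks, averaged 12.96 to 13.06 in wild type and 12.00 to 12.13 with the transgene over 8 of 9 listed genes. The fall was not even, since single differences ran from -3.58 for Tdo2 to 0.0007 for the albumin gene Alb. In bulk liver RNA, fewer cells of a type and less RNA per cell cannot be told apart.

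Gpnmb was the member that rose most, by 34.1-fold, and among the other members Rragc rose by 0.23 on the log2 scale. Of 3 Flcn probe sets 1 fell, and it was among the 40% of probe sets with the lowest mean on the array. None of the 4 probe sets for Tfeb, Mitf and Tfec was called. In all 2 member probe sets were called higher and 1 lower by limma, and 8 did not pass. Over the whole array 35.4% of probe sets were called, 18.1% higher and 17.3% lower, so the members' share of 27.3% was not above the background. Apart from Gpnmb the members' differences were small. Their median absolute difference was 0.13 over 10 probe sets, against 0.20 over all probe sets, and the largest was 0.38. For 4 of the 11 members the ranges of the groups were apart, with 3 higher and 1 lower in transgenic liver, against 50.5% of all probe sets (24.6% higher and 25.9% lower).

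**Figure D1:**
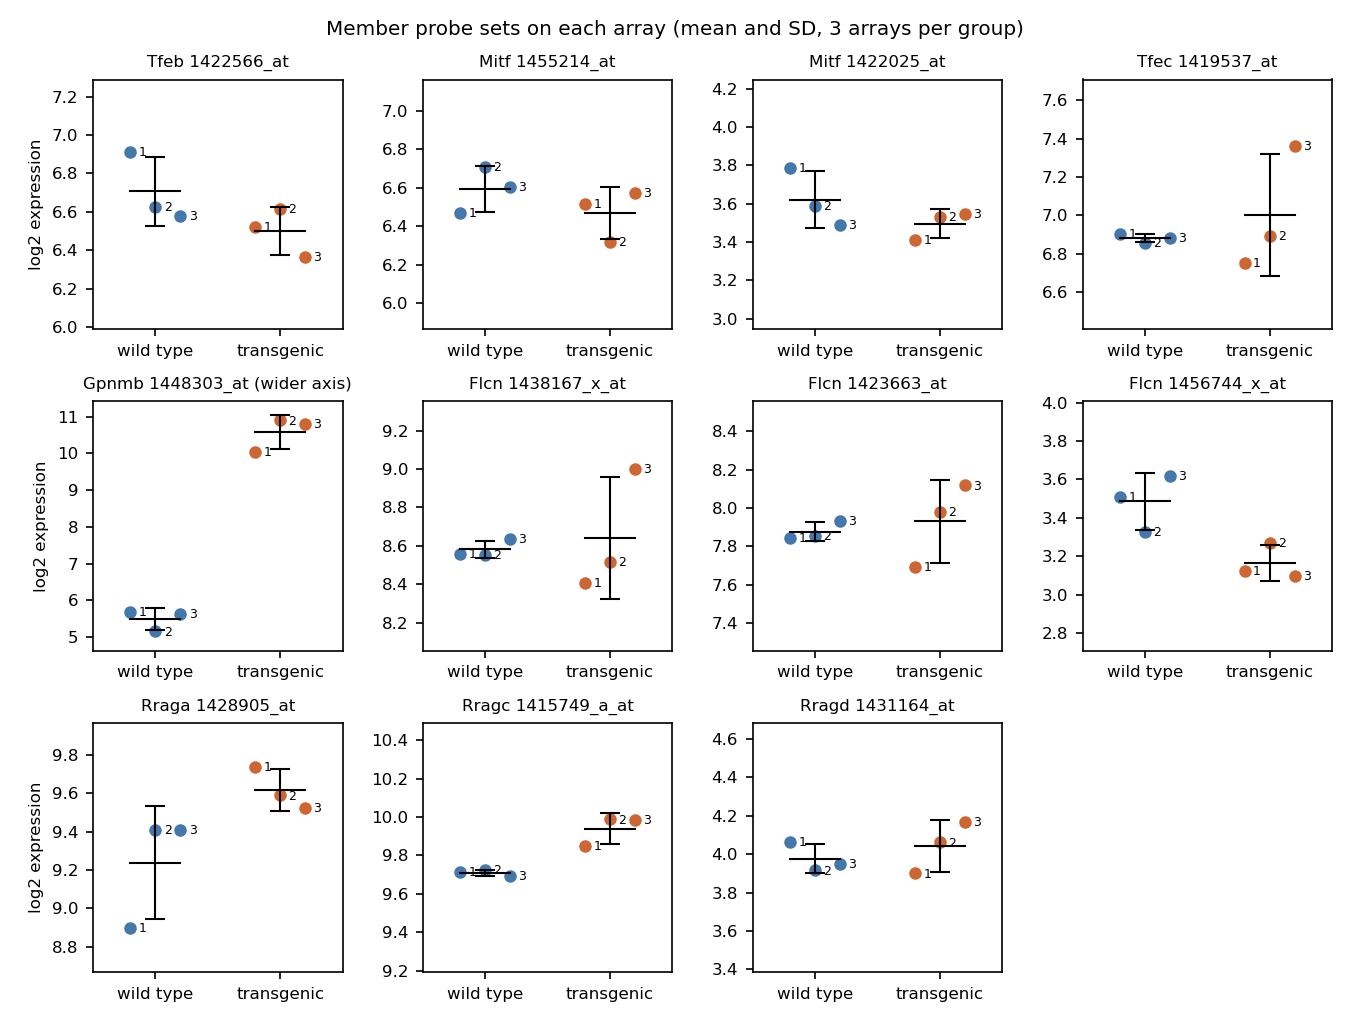
Log2 expression of each member probe set (y axis) on the 3 wild-type (blue) and 3 transgenic (orange) arrays, numbered by replicate, with the group mean and SD as black bars. All panels span the same height except Gpnmb, which has a wider axis; only Gpnmb, Rraga and Rragc lay higher on every transgenic array than on any wild-type array, and only Flcn 1456744_x_at lay lower.

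The overexpressed gene itself was read by 1 probe set, 1422566_at. Tfeb read 6.91, 6.63 and 6.58 in wild type and 6.52, 6.61 and 6.36 with the transgene. The groups overlapped, since transgenic replicate 2 lay above wild-type replicate 3. The difference was -0.21 (SE 0.11, 95% interval -0.46 to 0.05, limma adjusted p = 0.178), and it was 0.16 with arrays scaled to the hybridisation controls, still not called. A rise above 1.03-fold of what this probe set detects lay outside the interval on the deposited scale. Since neither the construct nor the part of the transcript that the probe set covers is given in the sources used here, this value does not check the transgene, and groups are those of the labels throughout.

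Mitf, the family member best known from melanocytes and osteoclasts, was read by 2 probe sets. The brighter, 1455214_at, read 6.47, 6.71 and 6.60 in wild type and 6.51, 6.32 and 6.57 with the transgene, so the groups overlapped. Its difference was -0.12 (SE 0.10, limma adjusted p = 0.345). The dimmer, 1422025_at, was among the 40% of probe sets with the lowest mean on this array and gave -0.13 (SE 0.09, adjusted p = 0.322). Both Mitf differences were 0.25 and uncalled after scaling to the hybridisation controls.

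Tfec, a family member found mainly in macrophages and other myeloid cells, differed in spread more than in mean. Its probe set read 6.90, 6.86 and 6.88 in wild type and 6.75, 6.89 and 7.36 with the transgene. Transgenic replicate 3 was the highest of the 6 arrays and transgenic replicate 1 the lowest. The transgenic values spanned 0.61 and the wild-type values 0.04, whereas the median span over all probe sets was 0.18 in transgenic and 0.20 in wild-type liver. The mean difference of 0.12 (SE 0.15, limma adjusted p = 0.544) turned to -0.06 without transgenic replicate 3 and was 0.49, called (adjusted p = 0.00481), after scaling to the hybridisation controls.

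Gpnmb was read by 1 probe set, 1448303_at, at 5.69, 5.15 and 5.64 in wild type and 10.05, 10.90 and 10.80 with the transgene. Every transgenic array lay far above every wild-type array, and transgenic replicate 1 was the lowest of its group. The group values were 5.49 ± 0.30 (SD, n = 3) and 10.58 ± 0.46 (SD, n = 3), a difference of 5.09 (SE 0.23, 95% interval 4.55 to 5.63, limma adjusted p = 8.44e-06). On a linear scale this is 34.1-fold, with an interval from 23.4-fold to 49.6-fold. It was the rise with rank 2 among 22626 probe sets. The deposited table holds no detection calls, so whether the wild-type reading was above background is unknown. All 3 wild-type values lay under 6.01, the mean below which the 40% dimmest probe sets fall. Leaving out 1 array at a time gave 4.92 to 5.36, the highest of them without transgenic replicate 1, and the 17 alternative settings gave 4.92 to 5.46, all of them called.

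Genes whose profile over the 6 arrays lay closest to that of Gpnmb, each centred on its own wild-type mean, were Slpi, a secreted protease inhibitor, at a root mean square distance of 0.24, Nupr1, a stress-induced chromatin protein gene, at 0.36, and the ectonucleotidase gene Entpd2 at 0.45. Wnt4, a WNT ligand gene, at 0.53 and the glutathione peroxidase gene Gpx3 at 0.55 came next. The likeness is over 6 arrays in 2 groups. Here and below the distance is not scaled, so it picks genes whose difference between groups is of similar size. These 5 genes rose by 5.03, 4.92, 4.52, 4.44 and 4.46 in the order named. Slpi read 8.28, 8.27 and 8.16 in wild type and 13.02, 13.36 and 13.43 with the transgene. As for Gpnmb, transgenic replicate 1, the array that reads as male, was the lowest of its group.

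Markers of cells that express Gpnmb were set beside it. Of 15 macrophage and Kupffer cell markers 14 were measured, and 0 rose, 6 fell and 8 did not pass by limma. By gene, with 1 probe set each, 38.6% of the array was called, 19.1% higher and 19.5% lower. The macrophage list averaged 9.89 to 10.22 on the wild-type arrays and 9.57 to 9.89 on the transgenic arrays, and the median difference of its genes was -0.35 against -0.04 for all genes. After scaling to the hybridisation controls that median was 0.02, with 3 members higher and 1 lower. The scavenger receptor gene Cd163 fell by 1.24 (SE 0.31) and Adgre1, which encodes a macrophage surface receptor, fell by 0.56 (SE 0.17). The number that fell was 10 without wild-type replicate 1, 2 without wild-type replicate 2 or 3, 4 without transgenic replicate 1 and 3 without transgenic replicate 2. The Cd163 call ended when wild-type replicate 2 or 3 was left out and with trend and robust eBayes (adjusted p up to 0.0566). The Adgre1 call ended when wild-type replicate 2 or 3 or transgenic replicate 1 or 2 was left out (up to 0.108), and with scaling to the hybridisation controls (0.286). No marker can read 0 on this log2 scale.

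Markers of macrophages that take up lipid, which are known to express Gpnmb, were mixed. Among the 6 on the array 3 rose and 1 fell, while 2 did not pass (66.7% called against 38.6% of all genes). Cd9, a tetraspanin gene also expressed outside macrophages, rose by 1.48 (SE 0.13) and Lpl, lipoprotein lipase, fell by 0.91 (SE 0.09). Trem2, the receptor gene that defines these macrophages, read 5.88 ± 0.24 in wild type and 6.15 ± 0.19 with the transgene (difference 0.27, adjusted p = 0.173), and was chosen after its value was seen. The list averaged 10.71 to 10.92 in wild type and 11.19 to 11.30 with the transgene. Its brightest genes in wild type were Fabp5 at 14.11, Lpl at 13.18 and Plin2 at 12.57, against 5.88 for Trem2. Fabp5 and Plin2 were chosen after their values were seen. Which cells gave these readings in bulk liver was not tested.

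Melanocytes and osteoclasts are cells in which Mitf drives Gpnmb. The share of markers called was 20.0% for melanocytes and 33.3% for osteoclasts, against 38.6% of all genes. Of 5 melanocyte genes 0 rose and 1 fell, the pigment enzyme gene Dct, by 1.01 (SE 0.23). Of 6 osteoclast genes 1 rose and 1 fell. Acp5, the tartrate-resistant acid phosphatase gene, rose by 0.36, a call lost in 8 of 17 settings, and Ocstamp fell by 2.15 (SE 0.18). The list averages were 4.91 to 5.10 and 4.58 to 4.70 for melanocyte markers and 6.35 to 6.53 and 6.09 to 6.11 for osteoclast markers, in wild type and transgenic liver in that order.

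Markers of other liver cells moved as well, where 19.1% of all genes were called higher and 19.5% lower. Cholangiocyte markers rose for 4 of 6 genes and none fell, among them Cldn4, a tight junction gene, by 4.61 (SE 0.26) and the transcription factor gene Sox9 by 2.22 (SE 0.16), and averaged 5.81 to 6.90 in wild type and 7.75 to 8.05 with the transgene. Krt19 (difference -0.27) and Cftr (0.38), chosen after their values were seen, were not called. Krt19 read 7.59, 7.47 and 6.10 in wild type and 6.96, 7.07 and 6.33 with the transgene. Without wild-type replicate 3, 1 cholangiocyte gene fell. Hepatocyte markers fell for 6 of 8 genes and none rose, with Tdo2, of tryptophan breakdown, which fell by 3.58 (SE 0.16), and Hpd, of tyrosine breakdown, which fell by 1.09 (SE 0.12). Alb (difference 0.0007) and Ttr (-0.03), chosen after their values were seen, were not called. After scaling to the hybridisation controls Alb was at 0.37 and Ttr at 0.34, and 4 hepatocyte genes were lower and 2 higher. Lymphoid and granulocyte markers fell for 6 of 7 genes and none rose, with the calprotectin genes S100a9, which fell by 2.00, and S100a8, which fell by 1.98. Erythroid markers rose for 3 of 5 genes and none fell, with Slc4a1, the red cell anion exchanger gene, higher by 1.00 on the probe set used, with 2 of its 3 called, and Epb42 by 0.98, with 1 of 2 called. With gene means these were 0.55 for Slc4a1 and 0.48 for Epb42, both still called. Of 7 stellate cell markers 1 rose and 3 fell, among them Reln, which fell by 1.06. The rise was that of Acta2, a smooth muscle actin gene, by 0.96 on 1 probe set, whereas its other probe set was called lower. The mean of both differed by 0.30 and did not pass (adjusted p = 0.102). After scaling to the hybridisation controls 3 stellate cell genes were higher and 2 lower. Of 6 endothelial markers 1 rose and 3 fell, with Lyve1 higher by 0.40 and Cdh5, a junction cadherin gene, which fell by 0.38, each on 1 of 2 probe sets. The Lyve1 call was lost in 6 of 17 settings. The Cdh5 call was lost in 2 of 17, those with gene means and with scaling to the hybridisation controls. After scaling to the hybridisation controls 0 endothelial genes were lower and 3 higher. The part of any of these cell types in the Gpnmb rise was not tested.

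**Figure D2:**
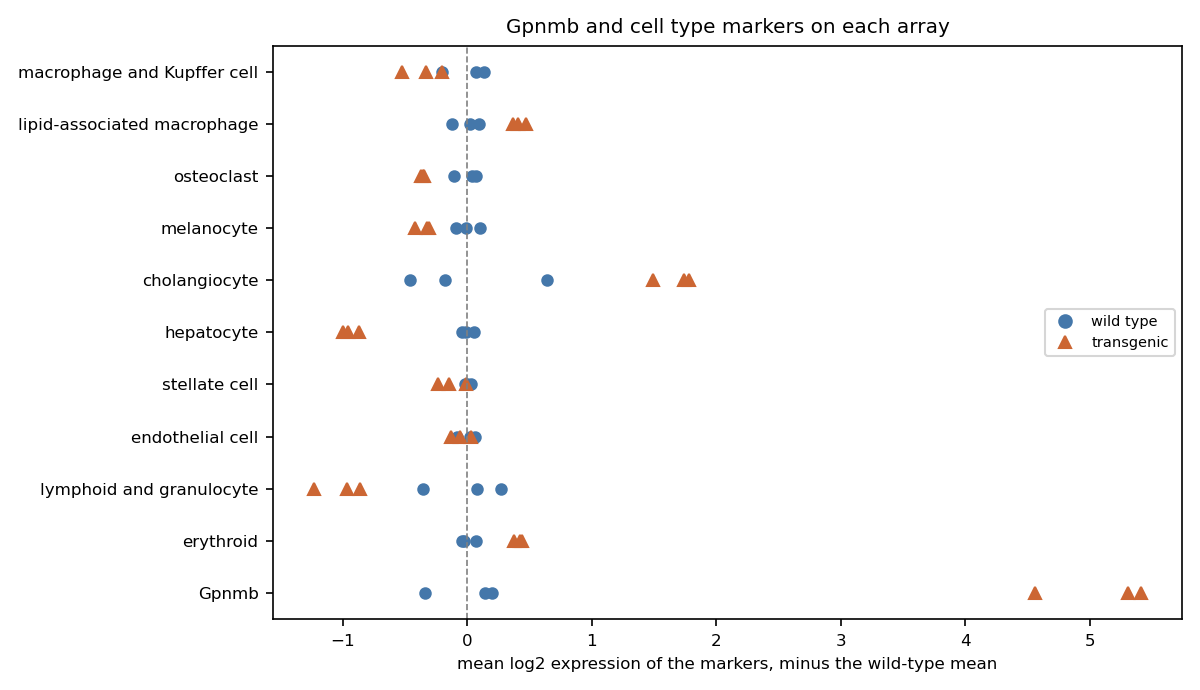
Mean log2 expression of each cell type marker list, and of the Gpnmb probe set in the bottom row, on each array minus the wild-type mean of the same row (x axis); circles are wild-type and triangles transgenic arrays. Gpnmb lies to the right by 5.09 on average, cholangiocyte markers by 1.67, and macrophage markers to the left by 0.35 on the deposited scale.

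Among the Rag GTPases, Rraga encodes RagA, which partners RagC or RagD in the lysosomal dimer. Its probe set, 1428905_at, read 8.90, 9.41 and 9.41 in wild type and 9.74, 9.59 and 9.52 with the transgene. All 3 transgenic arrays lay above the wild-type arrays, and wild-type replicate 1 stood below the rest. The difference of 0.38 (SE 0.14, 95% interval 0.05 to 0.71) did not pass (limma adjusted p = 0.0749). It was 0.21 without wild-type replicate 1 and 0.75, called, after scaling to the hybridisation controls.

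Rragc encodes RagC, the subunit on which folliculin acts. Its probe set, 1415749_a_at, read 9.71, 9.72 and 9.69 in wild type and 9.85, 9.99 and 9.98 with the transgene. The wild-type arrays lay within 0.03 of each other and below every transgenic array. Rragc rose by 0.23 (SE 0.07, 95% interval 0.07 to 0.39, limma adjusted p = 0.0373), or 1.17-fold. Probe sets of similar mean level had a median difference of 0.09. The call was lost with quantile normalization repeated (adjusted p = 0.0883), median centring (0.0699) and cyclic loess (0.179). Leaving out an array also ended the call for wild-type replicate 1 (0.063), 2 (0.0814) or 3 (0.0915) and for transgenic replicate 2 (0.116) or 3 (0.108). The range over all 17 settings was 0.000281 to 0.179, with 8 called. The closest profiles were those of Zfp207, a zinc finger protein gene, at a distance of 0.025, Ciao1, of cytosolic iron-sulphur protein assembly, the ATP synthase gene Atp5l and the CTP synthase gene Ctps2 at 0.027 each, and Uqcrc2, of respiratory complex III, at 0.0275. Its rise had rank 4783 among 22626 probe sets, and 44.4% of them had a larger absolute difference in either direction.

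Rragd encodes RagD, the subunit best known as a transcriptional target of the MiT/TFE factors. Its only probe set, 1431164_at, was among the 40% dimmest and read 4.06, 3.92 and 3.95 in wild type and 3.90, 4.06 and 4.17 with the transgene. The groups overlapped. The difference was 0.07 (SE 0.09, 95% interval -0.14 to 0.27, limma adjusted p = 0.585), so that on the deposited scale a rise of the probe set's reading above 1.21-fold lay outside the interval. It was 0.44, called, after scaling to the hybridisation controls, which moved the median of all probe sets by a like amount. Without detection calls it is not known whether this probe set measured the transcript in either group.

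Folliculin was read by 3 probe sets, of which only the dimmest was called, as lower. The brightest, 1438167_x_at, read 8.56, 8.55 and 8.63 in wild type and 8.40, 8.52 and 9.002 with the transgene, and 1423663_at read 7.84, 7.85 and 7.93 against 7.70, 7.98 and 8.12. Both overlapped between groups, with transgenic replicate 1 the lowest and transgenic replicate 3 the highest of all 6 arrays. Their Flcn differences were 0.06 (SE 0.15, limma adjusted p = 0.773) and 0.05 (SE 0.11, adjusted p = 0.724). Without transgenic replicate 3 they were -0.12 and -0.04, and with cyclic loess -0.02 and -0.01. After scaling to the hybridisation controls they were 0.43 each, both called higher (adjusted p = 0.00974 and 0.00386). The suffix _x_at marks probes that can bind other transcripts, so 1438167_x_at and the third probe set are less specific than 1423663_at.

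The third Flcn probe set, 1456744_x_at, was among the 40% dimmest and read 3.51, 3.33 and 3.62 in wild type and 3.12, 3.27 and 3.10 with the transgene. Without detection calls it is not known whether it measured the transcript. Each transgenic array lay below each wild-type array. It fell by 0.32 (SE 0.10, 95% interval -0.54 to -0.10, limma adjusted p = 0.0315), and among probe sets of similar brightness the median difference was -0.09. It did not pass when wild-type replicate 1 (adjusted p = 0.0651) or 3 (0.0931) or transgenic replicate 1 (0.0858) or 3 (0.0987) was left out, with quantile normalization repeated (0.0995) and with cyclic loess (0.129), and the difference was 0.05 after scaling to the hybridisation controls. Genes with the closest profiles were Robo4, an endothelial guidance receptor gene, at a distance of 0.036 and Svs5, a seminal vesicle protein gene, at 0.037. The trypsin gene Prss2 at 0.043, S100a5 at 0.047 and the progesterone receptor gene Pgr at 0.050 came next. The probe sets of Svs5, S100a5 and Pgr were also among the 40% dimmest, so it is not known whether they measured their transcripts.

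**Figure D3:**
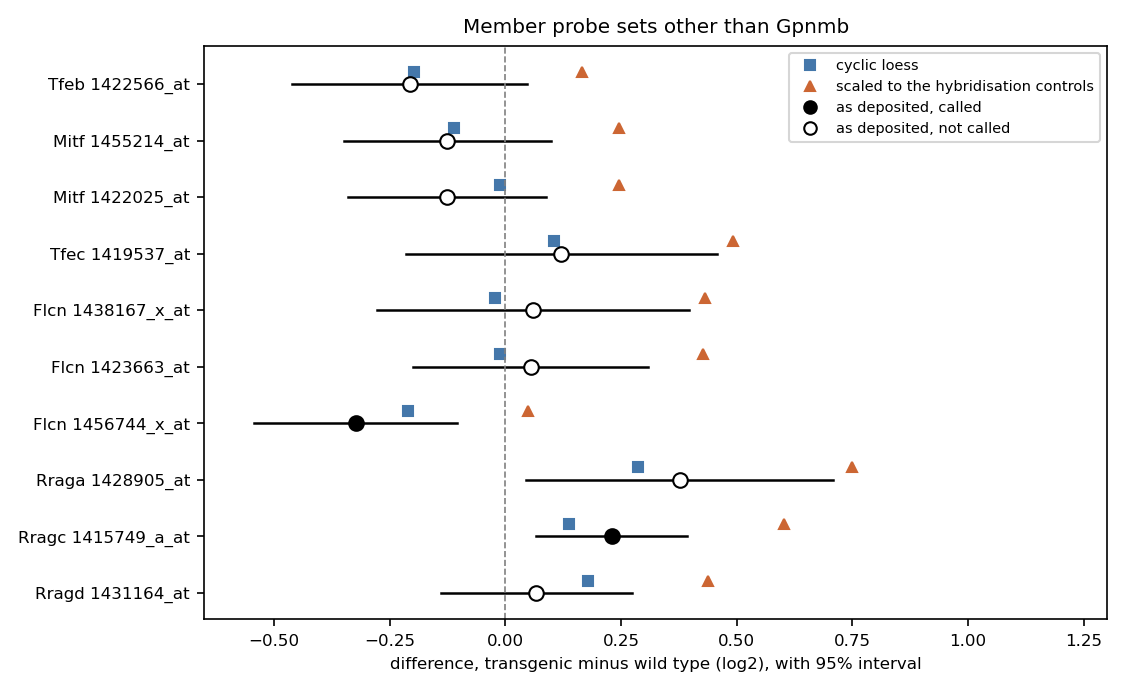
Difference between transgenic and wild-type liver (log2, x axis) for the 10 member probe sets other than Gpnmb, as deposited (circles with 95% limma intervals, filled where called), after cyclic loess (squares) and after scaling to the hybridisation controls (triangles). Scaling to the controls moves every value to the right by 0.37, which puts Tfeb, both Mitf probe sets and Flcn 1456744_x_at above 0; cyclic loess puts the other Flcn probe sets just below 0.

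The promoters of the 3 genes with a called probe set are shown because the overexpressed factor binds the E-box CACGTG and the related CATGTG. The RefSeq promoter table for GRCm38.p6 gives 250 bases before to 50 bases after each transcription start and held 15 promoters for all 10 genes. The sequences run 5′ to 3′, with any CACGTG or CATGTG on either strand in capitals. Gpnmb is at chr6:49036268-49036567 (+ strand), Rragc at chr4:123917183-123917482 (+ strand) and Flcn at chr11:59809990-59810289 (- strand).

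Gpnmb: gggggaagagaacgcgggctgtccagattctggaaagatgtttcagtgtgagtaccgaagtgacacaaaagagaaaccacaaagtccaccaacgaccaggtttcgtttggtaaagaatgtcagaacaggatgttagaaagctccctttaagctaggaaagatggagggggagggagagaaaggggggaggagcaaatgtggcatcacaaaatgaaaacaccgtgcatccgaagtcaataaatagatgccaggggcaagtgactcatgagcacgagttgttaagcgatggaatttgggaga

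Rragc: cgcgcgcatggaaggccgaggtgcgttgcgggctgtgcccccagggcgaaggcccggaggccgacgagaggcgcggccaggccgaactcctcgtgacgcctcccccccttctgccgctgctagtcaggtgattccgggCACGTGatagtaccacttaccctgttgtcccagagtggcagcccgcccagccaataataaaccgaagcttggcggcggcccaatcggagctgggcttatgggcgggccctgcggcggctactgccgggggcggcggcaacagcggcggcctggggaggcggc

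Flcn: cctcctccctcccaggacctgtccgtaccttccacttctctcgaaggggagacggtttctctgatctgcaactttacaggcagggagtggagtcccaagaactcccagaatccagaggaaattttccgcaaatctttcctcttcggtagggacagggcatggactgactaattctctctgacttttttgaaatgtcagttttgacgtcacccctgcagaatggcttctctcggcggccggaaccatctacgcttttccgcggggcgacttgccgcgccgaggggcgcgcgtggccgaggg

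Only the Rragc promoter among these holds such a motif, 1 CACGTG with its first base at -112 from the start. Of the 15 promoters 2 held CACGTG, the other being that of the unmeasured Fnip1, and 0 held CATGTG. Among 32851 promoters of the same length in the table, 7.15% held CACGTG and 14.2% held CATGTG on either strand. The longer forms TCACGTGA and TCATGTGA, which contain CACGTG and CATGTG, were in 0 of the 15 and in 0.974% and 0.986% of all promoters. A match describes letters in this window and is not evidence of binding.

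The neighbours of the Rag GTPases in nutrient sensing moved little. Of 32 listed genes of the Ragulator, GATOR, sestrin and mTORC1 groups 22 were measured, and 5 rose, 1 fell and 16 did not pass (27.3% called against 38.6% of all genes). The median difference was 0.08 against -0.04 for all genes. Sesn1, a stress-induced inhibitor of the pathway, went from 9.06 ± 0.20 to 9.52 ± 0.02 (difference 0.46, SE 0.10, limma adjusted p = 0.0104). These values are of the probe set used, and all 3 probe sets of Sesn1 were called higher. Rheb, the GTPase that activates mTORC1, rose by 0.34 (SE 0.07) and Nprl2, of the complex that switches RagA off, by 0.33 (SE 0.09). The last call was lost in 6 of 17 settings. The Ragulator gene Lamtor2, part of the Rag scaffold, fell by 0.30 (SE 0.07) on the probe set used, with both of its probe sets called lower. After scaling to the hybridisation controls its difference on that probe set was 0.08 and uncalled. With that scaling 18 of the 22 rose and 0 fell.

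Genes that hold MiT/TFE factors in the cytosol or release them were higher more often than lower. Among the 16 on the array 8 rose and 0 fell, while 8 did not pass. Over all genes 38.6% were called, 19.1% higher and 19.5% lower. The list's median difference was 0.23 against -0.04 for all genes (0.60 and 16 higher after scaling to the hybridisation controls). In this list 15 genes were outside the 40% dimmest probe sets, without which 59.2% of all calls on the array were higher. The 14-3-3 genes, whose proteins bind the phosphorylated factors, made up 4 of the 8 that rose. Ywhab (0.17) and Ywhae (0.01), also 14-3-3 genes and chosen after their values were seen, were not called on the probe sets used. Of their probe sets 3 of 6 and 1 of 4 were called higher. Ywhag rose from 10.29 ± 0.03 to 11.03 ± 0.04 (difference 0.73, SE 0.07, limma adjusted p = 0.000128; 0.48 with the mean of its probe sets), Ywhaq by 0.58, Ywhah by 0.54 and Ywhaz by 0.40. The calcineurin genes, whose phosphatase releases the factors, and Mcoln1, the lysosomal calcium channel gene that feeds it, were not called. Mcoln1 read 8.65 ± 0.21 in wild type and 8.63 ± 0.18 with the transgene, and was chosen after its value was seen.

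Genes known as MiT/TFE targets rose for 6 of 13 measured members, 1 fell and 6 did not pass. The share called was 53.8% against 38.6% of all genes (19.1% higher and 19.5% lower). The median difference was 0.16 against -0.04 for all genes (0.54 with 11 higher after scaling to the hybridisation controls). All 13 were outside the 40% dimmest probe sets, without which 59.2% of all calls on the array were higher. Ppargc1a, a coactivator of mitochondrial biogenesis, went from 8.83 ± 0.30 to 11.85 ± 0.33 (difference 3.02, SE 0.19, limma adjusted p = 2.94e-05). Gla, the lysosomal alpha-galactosidase gene, rose by 1.54 (SE 0.10; 0.91 with the mean of its probe sets), and Sqstm1, which encodes an autophagy receptor, rose by 0.94 (SE 0.08). Uvrag, of autophagosome maturation, fell by 0.32 (SE 0.07), a difference of 0.05 and uncalled after scaling to the controls. Lamp1, a lysosomal membrane protein gene chosen after its value was seen, read 12.28 ± 0.02 and 12.30 ± 0.05. The difference of Gpnmb, at 5.09, was larger than that of each of these 13 genes.

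Among 8 genes for the relative, sheddases and binding partners of GPNMB, 2 rose, 2 fell and 4 did not pass. Over all genes 38.6% were called, 19.1% higher and 19.5% lower, and whether this list differed from that was not tested. Fgfr1, a growth factor receptor gene, rose by 1.11 (SE 0.12, limma adjusted p = 0.000311), with 1 of its 2 probe sets called and a difference of 0.58 for their mean. Adam10, which encodes the protease that sheds the GPNMB ectodomain, went from 9.77 ± 0.08 to 10.13 ± 0.03 (difference 0.36, SE 0.07). The heparan sulphate proteoglycan gene Sdc4, a receptor for GPNMB, fell by 0.41 (SE 0.08) on the probe set used, with both called lower. The integrin gene Itga5 fell by 0.36 (SE 0.10), a call lost in 7 of 15 settings. Both falls were uncalled after scaling to the hybridisation controls, at -0.03 for Sdc4 and 0.01 for Itga5.

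**Figure D4:**
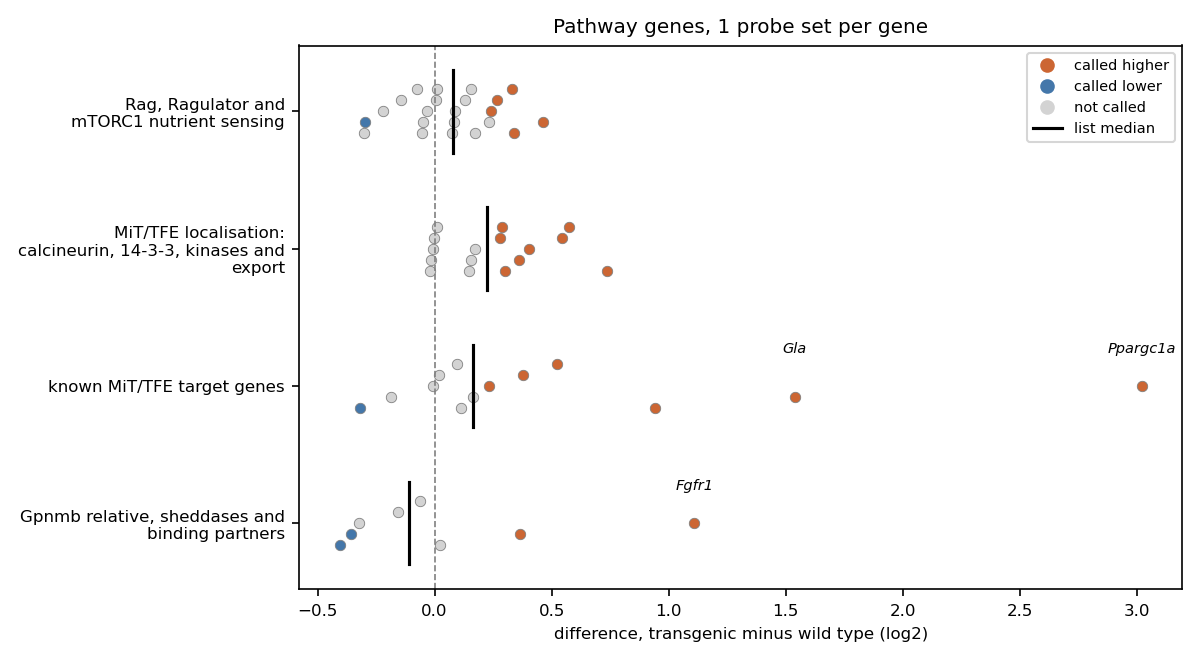
Difference between transgenic and wild-type liver (log2, x axis) for each measured gene of the 4 pathway lists, 1 probe set per gene, on the deposited scale; orange points were called higher, blue lower and grey not called, and black bars mark list medians of 0.08, 0.23, 0.16 and -0.11 from top to bottom. Ppargc1a, Gla and Fgfr1 are named as the genes with a difference above 1; after scaling to the hybridisation controls no gene of these lists was called lower.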

How the data were processed

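The deposited table gives log2 expression for each probe set. Per the submitters' processing notes the authors used affy and RMA, a method that corrects background, equalises the arrays' distributions by quantiles and summarises probes; no versions or filters are stated there. It holds 22690 probe sets, 64 of them array controls, with 0 missing values and no detection calls. Quantile normalization makes the distributions of the arrays alike, so a shift in overall RNA content is not visible. The platform annotation ties 20380 probe sets to 1 gene, 691 to several and 1555 to none; 20351 matched a RefSeq table of GRCm38.p6 by Entrez identifier and 29 kept the platform symbol.

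Groups come from the sample titles. The comparison used limma 3.58.1 under R 4.3.3 (lmFit then eBayes, without covariates). P-values were adjusted by Benjamini-Hochberg over 22626 probe sets, and the threshold was 0.05. An exact permutation test of 3 against 3 cannot go below p = 0.1 and was not used. For lists, 1 probe set stood for each of 12393 genes, the one of highest mean on the 6 arrays, with the adjusted p of the same fit; 129 of 155 listed genes were measured. The fit was tested on simulated data with few changed probe sets and no shift between arrays. That test does not bear on the normalization.

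The members, lists and alternatives were chosen with earlier results of these data known. Named genes are all members, up to 4 called genes per pathway list and up to 2 per marker list by size of difference (in each direction where both occur), and for each called member probe set the 5 genes at the smallest root mean square distance; others are marked as chosen after their values were seen. Python 3.11.15 with pandas 2.3.3 and matplotlib 3.10.9 served for tables and plots.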

Additional observations from a re-analysis of the deposited data

How the results depend on the processing

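Of 17 alternative settings, all called Gpnmb higher. Counts below are of member probe sets called unless stated. The number higher was 1 in place of 2 with quantile normalization again, median centring, cyclic loess and the replicate block, 7 with arrays scaled to the hybridisation controls, and 1 to 2 with 1 array left out. The number lower was 0 in place of 1 with 1 probe set per gene, gene means, no cross-hybridising probe sets, no dim probe sets (in these 4 the called Flcn probe set is left out or averaged), quantile normalization again, cyclic loess, scaling to the controls and the replicate block, and 0 to 1 with 1 array left out. Same-numbered wild-type and transgenic arrays were not paired by the data (correlations of their deviations -0.10, -0.02 and 0.05), so they share only a number. With the replicate block the calls of Rragc (adjusted p = 0.0751) and Flcn 1456744_x_at (0.0719) were lost, and 3466 probe sets were higher and 3291 lower against 4087 and 3919.

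Over the whole array 2467 were higher and 2523 lower with 1 probe set per gene, 2241 and 2524 with gene means (fewer features were tested in both) and 12963 and 945 with scaling to the controls (93.2% of calls higher against 51.0%). Of the Rag and mTORC1 list, 3 were higher with gene means and with median centring, 2 with quantile normalization again and with the replicate block, 18 higher and 0 lower with scaling to the controls, and 2 to 4 higher and 1 to 2 lower with 1 array left out. Of the localisation list, 16 were higher with scaling to the controls and 5 to 8 with 1 array left out. Of the target list, 11 were higher and 0 lower with scaling to the controls, and 2 were lower with gene means, without dim probe sets, with quantile normalization again, median centring, cyclic loess and trend with robust eBayes. Of the Gpnmb partner list, 1 was higher without cross-hybridising probe sets. In that list 1 was lower with that setting, without dim probe sets, with quantile normalization again and with cyclic loess, 0 were lower with scaling to the controls, and 1 to 2 with 1 array left out.

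With scaling to the controls the difference turned to 0.16 for Tfeb 1422566_at, 0.25 for Mitf 1455214_at, 0.25 for Mitf 1422025_at, 0.049 for Flcn 1456744_x_at, 0.076 for Lamtor2 1422797_at, 0.054 for Uvrag 1454706_at and 0.014 for Itga5 1423267_s_at. Flcn 1438167_x_at turned to -0.069 with gene means (its construction averages in the other probe sets), -0.0082 with quantile normalization again and -0.022 with cyclic loess, and ranged from -0.12 (without transgenic replicate 3) to 0.18 (without transgenic replicate 1). Flcn 1423663_at turned to -0.014 with quantile normalization again and -0.011 with cyclic loess, and ranged from -0.039 to 0.17 without the same arrays. Tfec 1419537_at ranged from -0.059 without transgenic replicate 3 to 0.25 without transgenic replicate 1. For the other changes the cause was not tested. Signal over background is unknown without detection calls, which limits the readings of Rragd, Mitf 1422025_at, Flcn 1456744_x_at and wild-type Gpnmb.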

Other observations

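Transgenic replicate 3 gave the highest of the 6 readings for 4 of the 11 member probe sets, those of Tfec and Rragd and the 2 brighter ones of Flcn, while it was the highest array for 14.4% of all probe sets. This was noticed after the values were seen and was not tested. The 3 transgenic values spanned more than the 3 wild-type values for 7 of the 11 member probe sets, against 43.8% of all probe sets.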
